A study of Homo sapiens with 30 samples.

Results

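The comparison of U251 cells after 28 days of continuous IFN-γ with U251 cells after 14 days was made in 6 of the 30 libraries of the series, chosen by their labels as the 3 libraries of each time point. U251 is an established human glioblastoma cell line, and the 30 libraries are bulk RNA-seq of U251 and of the glioblastoma line U87. Each line was kept without IFN-γ (Untreated) or given it for 3 (D3), 14 (D14) or 28 (D28) days, or for 14 days and then kept 14 more without it (D28WO), with 3 libraries a group. The protocol gives the dose as 1 µg/mL, whereas another field of the labels gives the same number in a unit of volume, and the study's methods give a lower dose. The untreated cells are labelled as collected on day 3, but the series design places them on day 0. The labels name no engineered change in the cells. The question was what changed between 14 and 28 days of continued exposure. No untreated cells were collected on day 14 or day 28, so exposure time and time in culture cannot be told apart. The labels call the 3 libraries of a group biological replicates. The p-values of the gene tests rest on the spread between libraries within a group, pooled over all U251 groups. That spread is not the one of the D14 and D28 libraries alone. Values are TPM, a level of transcripts scaled for transcript length and to the same total in every library, so the sequencing depth of each library is unknown from these values. In bulk RNA, fewer cells of a kind and less RNA per cell cannot be told apart.

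IFN-γ binds a receptor made of IFNGR1 and IFNGR2, and signals through the kinases JAK1 and JAK2 to GAS elements in DNA. These elements switch on early targets such as the transcription factor IRF1, which acts through ISRE elements on later genes, and CIITA, the master regulator of HLA class II genes. In glioma cells the pathway is known for antigen presentation, for the chemokines that draw T cells, and for inhibitory genes such as CD274 (PD-L1) and IDO1, while SOCS1 shuts the receptor's kinases off again.

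The levels of IFN-γ targets in the D14 libraries went against the order of exposure in the labels. By the labels the D14 cells were collected under IFN-γ and the D28WO cells 14 days after its removal, yet CIITA stood at 8.1, 7.48 and 6.85 TPM in the D14 libraries and at 109, 101 and 95.9 TPM in the D28WO libraries. Of 125 genes tested in 11 lists of interferon-related genes, 102 had all 3 D14 libraries below all 3 D28WO libraries and 6 had them all above, where 15.9% and 25.2% of all genes tested did. In these lists 43 genes were called higher and 3 lower in D28WO than in D14, where 1.66% and 5.34% of all genes tested were. Against Untreated the D14 libraries were raised, with 62 of the 125 genes called higher and 0 lower (all genes, 4.66% and 0.883%), among them IDO1 at 45.1 ± 8.42 against 7.97 ± 0.371 TPM (SD, n = 3). Cell cycle lists set D28WO apart from D14 too. Called lower at D28WO than at D14 were 21 of 43 S phase genes (median log2 fold change -0.96), 11 of 54 G2/M genes (median -0.58) and 16 of 22 replication licensing genes and cyclins (median -1.10), and 0 genes of these lists were called higher (limma; 1 of the G2/M genes was higher at the adjusted p alone), while at D28 the medians against D14 were -0.30, -0.41 and -0.23. Of 2 genes picked from the data, the collagenase MMP1 averaged 8.3 TPM at D14 and 20.3 at D28, but 0.16 at D28WO, and the neutrophil chemokine CXCL8 156, 139 and 30 TPM. Groups were kept as labelled, and whether each library belongs to its labelled group was not tested. Every difference from D14 rests on these 3 libraries, so levels at D3 or D28WO are given beside some of the main values.

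The D14 and D28 libraries overlapped in the number of genes above 0 but not in how levels were spread. Genes above 0 numbered 27763 to 29771 at D14 and 28955 to 30246 at D28 (exact permutation test, 2-sided p = 0.3, n = 3 each, where the smallest possible p is 0.1). The share of the total in the top 100 genes was 5.71% to 5.96% at D14 and 6.04% to 6.15% at D28, without overlap (exact permutation test, 2-sided p = 0.1, n = 3 each). The median log2(TPM + 1) of the genes tested was 3.66, 3.51 and 3.55 at D14 and 3.77, 3.83 and 3.71 at D28, also without overlap. Mitochondrially encoded genes summed to 5322, 6154 and 5649 TPM at D14 and 3687, 5319.7 and 5528 TPM at D28, with D28 replicate 1 apart. Quantile normalization, which makes the spread of levels equal, changed the counts of calls as given below, and without D28 replicate 1 the calls were 943 higher and 353 lower. The part of the mitochondrially encoded genes in the results was not tested otherwise. Pearson correlations of log2 values across genes were 0.966 to 0.970 within D14, 0.966 to 0.968 within D28 and 0.942 to 0.951 between them. The glioma markers VIM, CD44, NES, SOX2, GFAP and S100B were present in every D14 and D28 library, the lowest being S100B with 58.3, 67.1 and 67 TPM at D28.

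With D28 set against D14, 1043 genes were higher and 396 were lower of 24450 tested, which is 4.27% and 1.62%. A gene was called when its adjusted p was under 0.05 (limma on log2(TPM + 1), Benjamini-Hochberg adjustment over all genes tested) and its absolute log2 fold change over 1, a scale that understates the change of low genes. Of the called genes, 72.5% were higher, a share that fell to 56.6% with quantile normalization (767 higher and 587 lower). The median log2 fold change of all genes tested was 0.05. All 3 D28 libraries lay beyond all 3 D14 libraries for 997 of the higher and 372 of the lower genes. These genes were called for their difference, so this count largely follows from the call. The share over all genes tested is not given for D28 against D14, so the count is not read as a result. For D28WO against D14, 15.9% of all genes tested were higher without overlap and 25.2% lower. At an adjusted p under 0.05 without the fold limit, 2799 genes (11.4%) were higher and 2279 (9.32%) lower. These shares, with the 4.27% and 1.62% of the calls, are those to set beside each list count of D28 against D14.

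**Figure D1:**
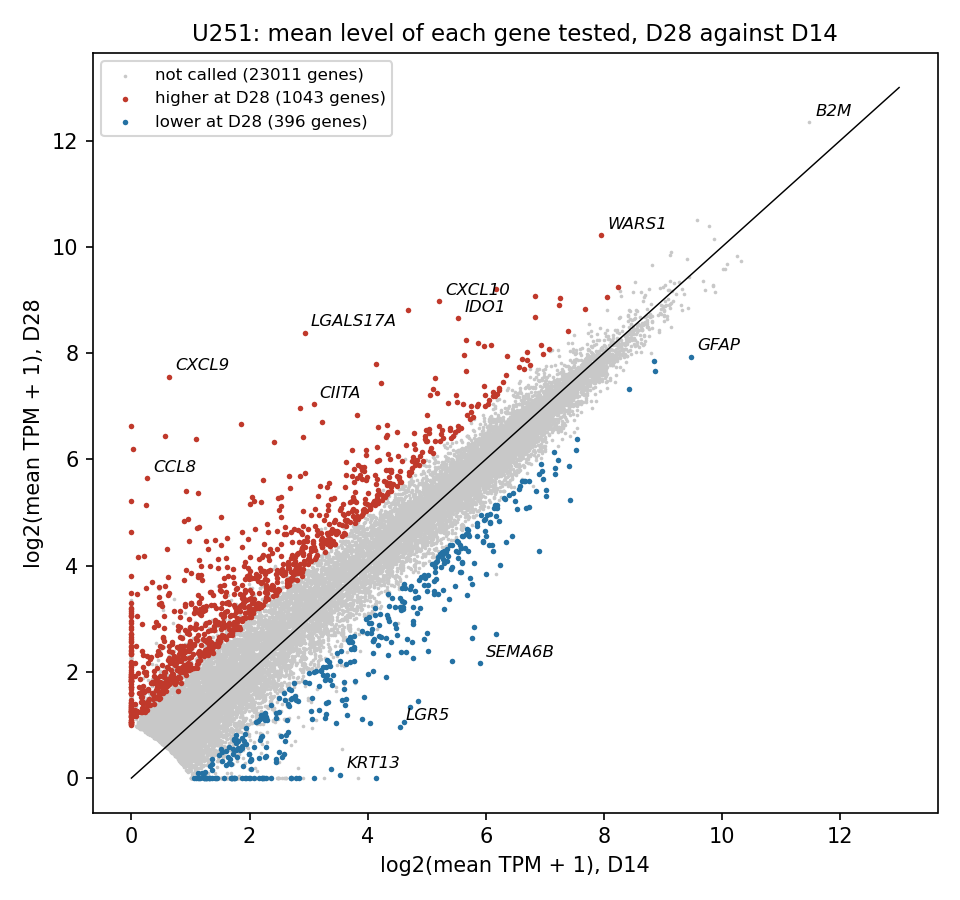
Mean level of each of the 24450 genes tested at D14 (horizontal) and D28 (vertical), as log2 of the mean TPM + 1 over 3 libraries each, with the 1043 genes called higher in red and the 396 called lower in blue. The line marks equal levels, and CXCL9 and LGALS17A lie far above it.

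CXCL9, a ligand of the receptor CXCR3, which guides activated T cells, had the largest log2 fold change among the genes that met the naming rule. CXCL9 was listed at 0.358, 0.392 and 0.894 TPM in the D14 libraries and at 186, 174 and 203 TPM in the D28 libraries. The groups lay far apart, with a log2 fold change of 6.94 ± 0.22 (SE; limma adjusted p = 3.13e-10). CXCL10 and CXCL11 are ligands of the same receptor. CXCL10 rose from 35.5, 36.4 and 36.5 to 492, 498 and 521 TPM, and CXCL11 from 19.4, 27.2 and 27.7 to 432, 418 and 493 TPM. Both were without overlap, which the naming rule required of CXCL11. Their log2 fold changes were 3.77 and 4.14 (limma adjusted p = 1.15e-08 and 1.65e-08). At D3 the 3 genes averaged 94.9, 239 and 246 TPM, and at D28WO 16.1, 89.3 and 31.5 TPM. D28 was the highest of the 5 groups for each of them. In the annotation CXCL10 and CXCL11 overlap ART3 on the opposite strand, and whether strand was used in counting is not given in the sources used here. CCL8, a chemokine of monocytes, was listed at 0 in 2 of the D14 libraries and at 0.61 TPM in replicate 1, and stood at 45.9, 46.8 and 54 TPM at D28 (log2 fold change 5.41; limma adjusted p = 2.81e-07). Its level at D3 was 7.95 TPM and at D28WO 0.131 TPM. Of the 9 CXCR3 and CC chemokine genes tested, 6 were called higher and 0 lower, with a median log2 fold change of 1.76. The other called members were CCL5, which attracts T cells and monocytes (6.39 to 23.2 TPM), and CX3CL1, the ligand of the microglial receptor CX3CR1 (68.8 to 145 TPM). The monocyte attractant CCL2 did not pass, at 54.9, 59.3 and 57.1 against 68, 75.2 and 76 TPM. Among ligands of the neutrophil receptor CXCR2, 0 of 3 genes tested passed (limma, 0 also at an adjusted p alone), and CXCL8 stood at 143, 172 and 153 TPM at D14 and 128, 134 and 153 TPM at D28.

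**Figure D2:**
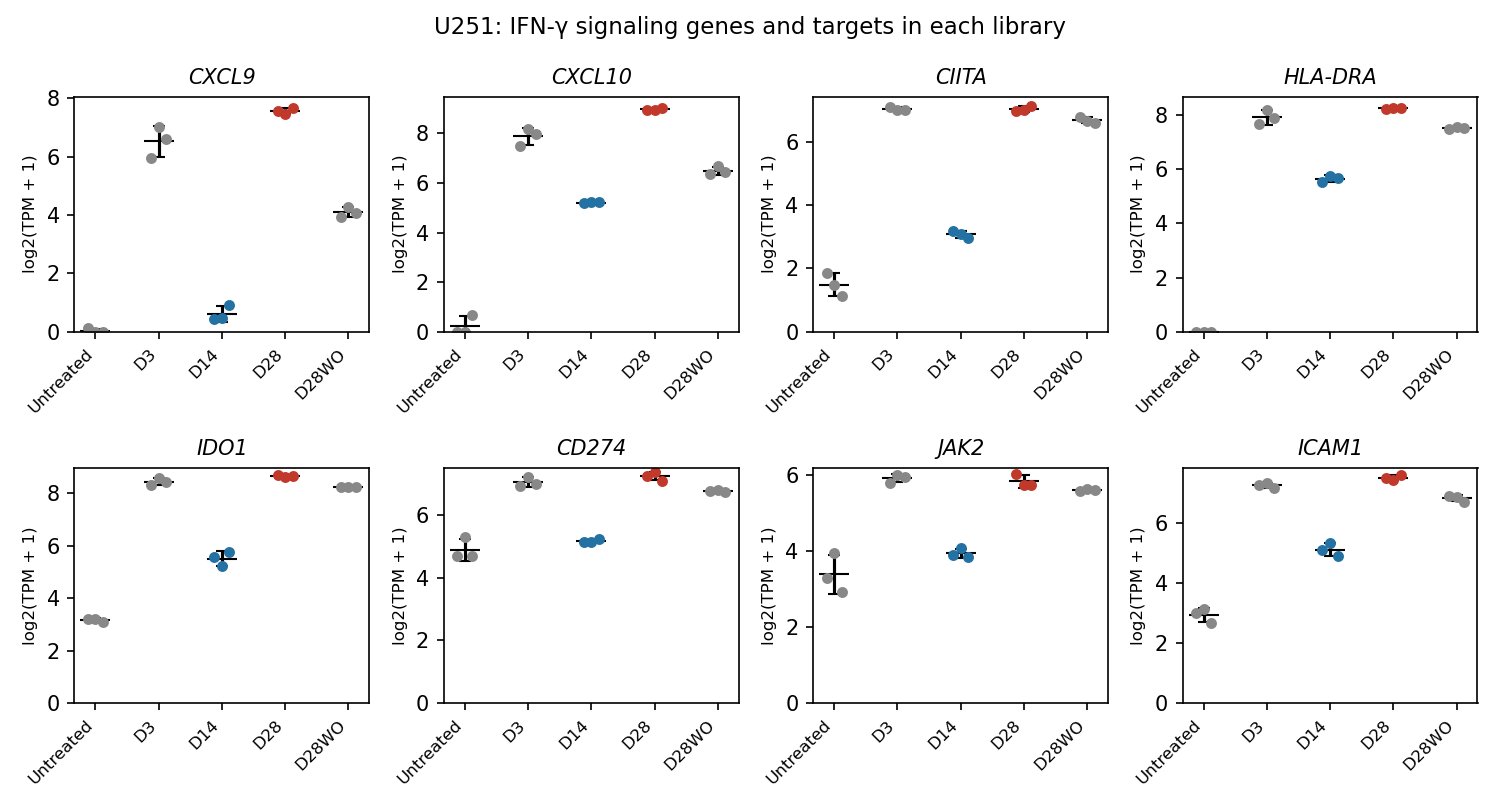
Level of 8 genes as log2(TPM + 1) in each of the 15 U251 libraries, by group (points, D14 blue and D28 red), with the mean and SD of 3 libraries. CXCL9, CXCL10, CIITA, HLA-DRA, IDO1, CD274, JAK2 and ICAM1 have their D14 points below those of D3 and D28.

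Promoter windows of 4 genes that rose, taken from RefSeq (GRCh38.p14), are shown because GAS and ISRE are the elements through which the pathway acts. Each window runs from 250 bases before to 50 after the start and is written 5′ to 3′, with matches in capitals. The motifs searched on both strands were GAS, as TTC and GAA with any 3 bases between them, and ISRE, as 2 runs of GAAA with any 2 bases between them, and matches may overlap. The genes looked up and the 4 windows printed were chosen after values and matches were seen.
CXCL9, chr4:76007460-76007759, minus strand: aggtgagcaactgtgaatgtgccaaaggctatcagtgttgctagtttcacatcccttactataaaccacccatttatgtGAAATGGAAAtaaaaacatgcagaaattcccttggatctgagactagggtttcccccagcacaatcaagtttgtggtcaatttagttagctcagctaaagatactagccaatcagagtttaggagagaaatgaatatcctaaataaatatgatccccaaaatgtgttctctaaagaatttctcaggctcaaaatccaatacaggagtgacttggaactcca
CXCL11, chr4:76036021-76036320, minus strand: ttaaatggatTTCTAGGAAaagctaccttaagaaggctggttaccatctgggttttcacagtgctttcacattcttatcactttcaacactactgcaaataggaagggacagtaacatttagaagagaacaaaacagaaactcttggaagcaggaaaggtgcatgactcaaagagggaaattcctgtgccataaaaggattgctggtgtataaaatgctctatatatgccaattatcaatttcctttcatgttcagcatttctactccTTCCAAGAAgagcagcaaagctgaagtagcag
CD274, chr9:5450292-5450591, plus strand: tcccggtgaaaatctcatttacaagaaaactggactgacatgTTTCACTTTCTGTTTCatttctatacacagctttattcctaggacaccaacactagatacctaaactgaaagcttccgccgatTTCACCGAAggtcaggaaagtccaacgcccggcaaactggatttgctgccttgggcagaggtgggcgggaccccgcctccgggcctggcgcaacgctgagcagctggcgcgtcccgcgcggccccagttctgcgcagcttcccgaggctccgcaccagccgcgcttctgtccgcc
ICAM1, chr19:10270870-10271169, plus strand: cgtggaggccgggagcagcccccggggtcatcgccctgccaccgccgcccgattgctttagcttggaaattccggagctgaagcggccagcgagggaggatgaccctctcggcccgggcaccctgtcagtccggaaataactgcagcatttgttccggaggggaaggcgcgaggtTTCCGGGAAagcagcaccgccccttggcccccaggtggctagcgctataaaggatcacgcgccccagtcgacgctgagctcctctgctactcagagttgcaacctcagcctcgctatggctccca
The CXCL9 window held 1 ISRE match, that of CXCL11 2 GAS matches, that of CD274 1 GAS match and 2 overlapping ISRE matches on the opposite strand, and that of ICAM1 1 GAS match. GAS was found in 7.66% and ISRE in 3.57% of all 35116 RefSeq windows. Over the 19663 windows of genes tested the shares were 6.59% and 3.01%, over the 736 windows of genes called higher 10.1% and 9.38%, and over the 345 windows of genes called lower 8.12% and 0.87%. A match describes the letters of a window, and binding was not measured. Either motif was found in 10.8% of all windows, 9.23% of those of genes tested, 17.9% of those of genes called higher and 8.99% of those of genes called lower. Of 41 genes looked up, 24 had 1 or more windows and 13 of these held either motif in any of them, a count of genes that the shares of windows do not match directly.

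Every gene tested in the class II list rose. The regulator CIITA (chr16:10866222-10943021, GRCh38) went from 8.1, 7.48 and 6.85 TPM at D14 to 126, 126 and 139 TPM at D28, a log2 fold change of 3.96 ± 0.14 (SE; limma adjusted p = 6.7e-10). Its D3 level of 130.5 ± 5.85 TPM (SD, n = 3) was that of D28, with a log2 difference of 0.00 between them (limma adjusted p = 1). All 13 genes of the class II list, CIITA included, were called higher, and the median log2 fold change was 2.59. HLA-DRA, the nearly invariant alpha chain of HLA-DR, rose from 44.8, 53.7 and 50.4 to 296, 304 and 308 TPM, and CD74, the invariant chain that escorts class II molecules, from 70.4, 75.9 and 67.4 to 561, 631 and 575 TPM. HLA-DQA1 had the steepest rise of the list, from 0.24, 0.047 and 0.258 to 33.2, 38.6 and 30.4 TPM (log2 fold change 4.89; limma adjusted p = 2.5e-08). In that gene D28 was also above D3, where the mean was 7.33 TPM. HLA-DOA, which tempers peptide loading by HLA-DM, rose from 7.67, 2.77 and 8.21 to 131, 108 and 131 TPM, and HLA-DQB2 from 0.571, 0.159 and 1.83 to 27.2, 28.2 and 27.2 TPM. None of these groups overlapped, which the naming rule required of HLA-DQA1, HLA-DOA and HLA-DQB2. Between D28 and D3, 1 of the 13 genes was called higher and 0 lower (all genes, 2.85% and 0.352%), and the median was 0.30. Between D28WO and D14, 10 were called higher and 0 lower, with a median of 1.86, and HLA-DRA averaged 183 TPM at D28WO. HLA genes are near-identical paralogs, so the split of reads among them is uncertain.

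The signaling genes themselves moved less. JAK2 rose from 14, 15.8 and 13.4 to 64.7, 52.4 and 52.6 TPM, without overlap (log2 fold change 1.90 ± 0.19, SE; limma adjusted p = 1.05e-05). JAK2 averaged 59.5 TPM at D3 and 47.9 TPM at D28WO. IRF1 rose from 287, 321 and 292 to 577, 559 and 674 TPM, a log2 fold change of 1.00 at the limit of the call (limma adjusted p = 2.05e-05), and the fold limit was missed without D14 replicate 1 (0.97), D14 replicate 3 (0.98) or D28 replicate 3 (0.92), with median-ratio size factors (0.97) and with array weights (0.99). Among receptor chains, IFNGR2 was at 80.6, 94.7 and 87.8 and 70.1, 69.9 and 71.7 TPM (log2 fold change -0.31; limma adjusted p = 0.00819), below the fold limit. IFNGR1 and JAK1 had log2 fold changes of 0.06 and -0.01 (limma adjusted p = 0.681 and 0.931). In all, 2 of the 6 core genes were called higher and 0 lower, and 2 were higher and 1 lower at the adjusted p alone, with a median of 0.11. A list of 12 tested genes holding other STAT and IRF factors, the bZIP factor BATF2 and the kinase TYK2 had 2 calls: BATF2, a partner of IRF1 in macrophages (24 to 76.6 TPM), and STAT5A (5.36 to 12 TPM), whose log2 fold change of 1.02 fell under the limit without D14 replicate 2 (0.98) or D28 replicate 1 (0.94), with quantile normalization (0.85) and, barely, with median-ratio size factors. The feedback inhibitor SOCS1 rose from 11.5, 9.13 and 6.94 to 41.3, 46.1 and 49.9 TPM (log2 fold change 2.22; limma adjusted p = 1.45e-07), 1 of 7 feedback genes called (3 were higher and 1 lower at the adjusted p alone), and averaged 65.7 TPM at D28WO. SOCS3, an inhibitor mainly of IL-6 family receptors, averaged 65.9 and 82.5 TPM and was not called.

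Every gene tested in 2 lists of interferon-induced effectors rose. All 5 guanylate-binding proteins, GTPases that attack pathogen vacuoles, were called higher, with a median log2 fold change of 1.66. GBP5 (chr1:89256189-89272860) stood at 113, 117 and 108 TPM at D14 and 573, 534 and 517 TPM at D28, and GBP4 at 32.7, 37 and 31.1 and 161, 154 and 163 TPM. Neither gene's groups overlapped, and the log2 fold changes were 2.25 and 2.21 (limma adjusted p = 7.92e-09 and 1.77e-08). All 5 apolipoprotein L genes tested were also called higher (median 1.59). The call of APOL6, chosen after its values were seen, was marginal, with a log2 fold change of 1.01 that fell under the limit without D14 replicate 1 (0.98), without D28 replicate 1 (0.99) and with median-ratio size factors (0.98). The largest rise of the list was that of APOL4, from 1.78, 3.3 and 4.3 to 35.3, 38.4 and 41.4 TPM. At D3 GBP5 averaged 579 and APOL4 30 TPM, and at D28WO 627 and 44.2 TPM. The median log2 fold change of D28 against D3 was 0.10 for the guanylate-binding proteins and 0.14 for the apolipoprotein L genes. D28WO against D14, which shares the D14 libraries, called all 5 genes of each list higher as well, with medians of 1.81 and 1.46.

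Most class I antigen presentation genes stayed within the fold limit. Of 13 genes tested, 2 were called, TAP1, which pumps peptides into the endoplasmic reticulum (195, 209 and 207 to 451, 452 and 456 TPM), and TAPBPL, a peptide editor (36.2, 27.2 and 32.9 to 92.9, 94.4 and 94.9 TPM). At the adjusted p alone 12 were higher and 0 lower, and the median log2 fold change was 0.81. B2M (chr15:44711358-44718851), the light chain of class I molecules, was the most abundant transcript in each of the 6 libraries, at 2879, 2779 and 2887 TPM at D14 and 5443, 5277 and 4937 TPM at D28. Its log2 fold change was 0.87 ± 0.05 (SE; limma adjusted p = 2.5e-08). Quantile normalization gives the top-ranked gene the same value in every library and so set it to 0. HLA-B averaged 764 ± 52.5 and 1455 ± 89.7 TPM (SD, n = 3). Of the 5 genes in the list of the immunoproteasome, which cuts peptides to fit class I molecules, 1 was called and 4 were higher at the adjusted p alone. PSMB10 had a log2 fold change of 1.01 (limma adjusted p = 2.06e-07), which was 0.97 without D14 replicate 2 and 0.98 with median-ratio size factors, and missed the fold limit also without D28 replicate 1. PSMB8 was at 166 and 184 TPM and did not pass. Of the 14 subunits of the constitutive proteasome, 1 was higher and 1 lower at the adjusted p alone (median -0.03).

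Of 10 genes tested in the list of checkpoint and tryptophan genes, 6 were called higher and 0 lower, 8 were higher and 0 lower at the adjusted p alone, and the median was 1.09. IDO1, which turns tryptophan into kynurenine and starves T cells, went from 46.7, 36 and 52.6 TPM at D14 to 411, 389 and 405 TPM at D28. The rise was 3.14 ± 0.11 on the log2 scale (SE; limma adjusted p = 4.5e-10) with no overlap, and IDO1 averaged 346 TPM at D3 and 302 TPM at D28WO. WARS1, the tryptophan transfer RNA ligase, rose from 219.7, 255 and 267 to 1281, 1172 and 1118 TPM, with a level of 1305 TPM at D3 and 1408 TPM at D28WO. CD274 (chr9:5450503-5470566), the PD-1 ligand, stood at 34.4, 34.1 and 36.6 TPM at D14, close to the Untreated level of 29.3 TPM, and at 152, 165 and 137 TPM at D28 (log2 fold change 2.08; limma adjusted p = 2.05e-07). Its D3 and D28WO means were 133 and 109 TPM. PDCD1LG2, the other PD-1 ligand, rose from 13.6, 14.1 and 16.1 to 69.7, 64.5 and 67.1 TPM. The weakest of the 6 was KMO, which hydroxylates kynurenine, at 7.95, 14.8 and 5.54 TPM at D14 and 27.2, 17.6 and 15.9 TPM at D28, with a narrow gap between the groups, and it was chosen after its values were seen. Its log2 fold change was 1.09 (limma adjusted p = 0.0219), and the call was lost without D14 replicate 1 (1.03, adjusted p = 0.0642), D14 replicate 3 (0.80, 0.0987) or D28 replicate 1 (0.86, 0.0975), by limma. It was lost too with the 2 groups alone in the fit (limma adjusted p = 0.0683) and with quantile normalization (0.97).

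Most of the antiviral genes shared with type I interferon were higher at the adjusted p alone, while 5 also passed the fold limit. Of 40 tested, 5 were called higher and 0 lower (all genes, 4.27% and 1.62%). At the adjusted p alone 28 were higher (all genes, 11.4%), and the median log2 fold change was 0.49. The exonuclease ISG20 rose from 37.2, 26.6 and 29.9 to 102, 122 and 117 TPM. RSAD2 (viperin), which makes a chain-terminating nucleotide, rose from 96.3, 82.3 and 103 to 208, 208 and 222 TPM and averaged 0.634 TPM in Untreated. With a pseudocount of 0.1 RSAD2 had a limma adjusted p of 0.0505 and was not called. IFI35, an interferon-induced protein chosen after its values were seen, was called with a log2 fold change of 1.03 (166 to 341 TPM), which fell under the limit without D28 replicate 2 (0.99). Complement genes gave 5 calls among 12, all higher, while 9 were higher and 2 lower at the adjusted p alone (median 0.93). C2, a protease of the classical pathway, rose from 4.79, 3.99 and 2.35 to 51, 47 and 45.4 TPM, but it overlaps CFB on the same strand in the annotation and reads of the 2 genes may be shared. SERPING1, the C1 inhibitor, averaged 48.5 and 247 TPM, C3 113 and 411 TPM, and the decay accelerator CD55 26.3 and 65 TPM.

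Among adhesion molecules for leukocytes, 2 of 5 tested were called higher and 0 lower, while at the adjusted p alone 2 were higher and 2 lower (median -0.28). ICAM1 (chr19:10271093-10286615), the ligand of the integrin LFA-1, rose from 33.5, 39.5 and 29.4 to 183, 174 and 194 TPM (log2 fold change 2.40 ± 0.12, SE; limma adjusted p = 1.56e-08). ICAM1 averaged 154 TPM at D3 and 113 TPM at D28WO. VCAM1, the ligand of the integrin VLA-4, rose from 55.5, 51.7 and 51.4 to 116, 117 and 118 TPM. Cell death effectors had 3 calls among 13, all higher (median 0.44): the death ligand TNFSF10 (TRAIL, 71.7 to 149 TPM), the initiator caspase CASP10 (1.35 to 5.07 TPM) and the nucleic acid sensor ZBP1 (1.67 to 6.88 TPM). Of 20 NF-κB subunits and targets, 2 were called higher and 1 lower, and 4 were higher and 2 lower at the adjusted p alone (median -0.10). IL15, a growth factor of natural killer and memory T cells, rose from 19.2, 16.8 and 17.7 to 40.6, 41.6 and 35 TPM. LIF, a cytokine of the IL-6 family, fell from 29.5, 28.7 and 27.7 to 5.08, 10.9 and 8.58 TPM. IL32 averaged 53.9 and 110.3 TPM, a log2 fold change of 1.03 that was 0.90 without D14 replicate 2 and 0.96 without D28 replicate 3.

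Other genes among the 12 largest rises under the naming rule have less certain identities or roles in glioma cells. LGALS17A (chr19:39679372-39686373), annotated as a long noncoding RNA, rose from 7.21, 3.68 and 9.03 to 339, 307 and 356 TPM, and averaged 315 TPM at D3 and 0.0594 TPM in Untreated. GJD3, a gap junction protein, rose from 0.624, 0.958 and 1.11 to 41.7, 41.8 and 40.3 TPM. The 2 genes had log2 fold changes of 5.52 and 4.48 (limma adjusted p = 1.57e-09 and 3.13e-10). OR2I1P, named as an olfactory receptor, rose from 1.79, 0.458 and 1.27 to 38.3, 39.6 and 42.4 TPM, but it overlaps the opposite strand of UBD, a ubiquitin-like gene chosen here after its values were seen, which rose from 19.1, 18.5 and 19.9 to 87.4, 103 and 105 TPM. Without knowledge of the strand, reads of the 2 genes cannot be told apart. ANKRD22 rose from 0.0993, 0.072 and 0.0564 to 14.8, 17.3 and 18.7 TPM and averaged 1.25 TPM at D3. H2AC18 stood at 1.34, 0.0894 and 0.000153 TPM at D14 and 128, 3.33 and 125 TPM at D28, but its reads are split with the near-identical copy H2AC19, which stood at 112, 109 and 111 and 1.5, 131 and 1.07 TPM. The sum of both copies was 113, 109 and 111 TPM at D14 and 130.0, 134 and 126 TPM at D28, so the call of H2AC18 is uncertain. It was lost without D14 replicate 2 or 3 and without D28 replicate 1 or 3 (limma adjusted p = 0.0838, 0.084, 0.111 and 0.111), with log2 fold changes of 4.76, 4.69, 4.09 and 4.12, and with no filter on low values (limma adjusted p = 0.0558).

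The 396 lower genes had a median level of 15.2 TPM at D14 and 4.13 TPM at D28, beside 15.9 TPM in Untreated, 5.06 TPM at D3 and 5.91 TPM at D28WO. SEMA6B (chr19:4542593-4581776), a semaphorin that guides axons, had the largest fall among the genes that met the naming rule. SEMA6B fell from 59.6, 58 and 58.6 TPM at D14 to 3.05, 4.17 and 3.24 TPM at D28. Its log2 fold change was -3.74 ± 0.20 (SE; limma adjusted p = 3.17e-08). LGR5, a receptor of Wnt-amplifying R-spondins, fell from 21.7, 19.3 and 25.8 to 0.428, 0.969 and 1.47 TPM, and PI15, a peptidase inhibitor, from 62.1, 81.2 and 71.1 to 5.2, 5.78 and 5.63 TPM. Both stood higher at D14 than in Untreated, where they averaged 9.11 and 27.5 TPM. KRT13, an epithelial keratin, fell from 15.7, 8.69 and 7.4 TPM to 0, 0.133 and 0 TPM, and the serine protease PRSS33 from 10.2, 6.57 and 5.82 TPM to being listed at 0 in all 3 D28 libraries. ADAMTS7, a secreted metalloprotease, fell from 52.4, 43.5 and 30.5 to 3.64, 3.4 and 3.7 TPM, with 101 TPM in Untreated and 5.93 TPM at D3. CD180, a Toll-like receptor relative, fell from 20.7, 19.9 and 29.7 to 0.946, 1.06 and 1.25 TPM. The D14 and D28 libraries of these genes did not overlap, which the naming rule required. Their log2 fold changes ran from -3.74 to -3.06. Further large falls were those of TMEM61 (mean 27.8 to 1.75 TPM), the pseudogene ITGB1P1 (15.4 to 1.05 TPM), which can share reads with ITGB1, the transmembrane protease TMPRSS5 (53.3 to 5.24 TPM) and SCUBE3, a secreted signaling protein (54.5 to 6.18 TPM).

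**Figure D3:**
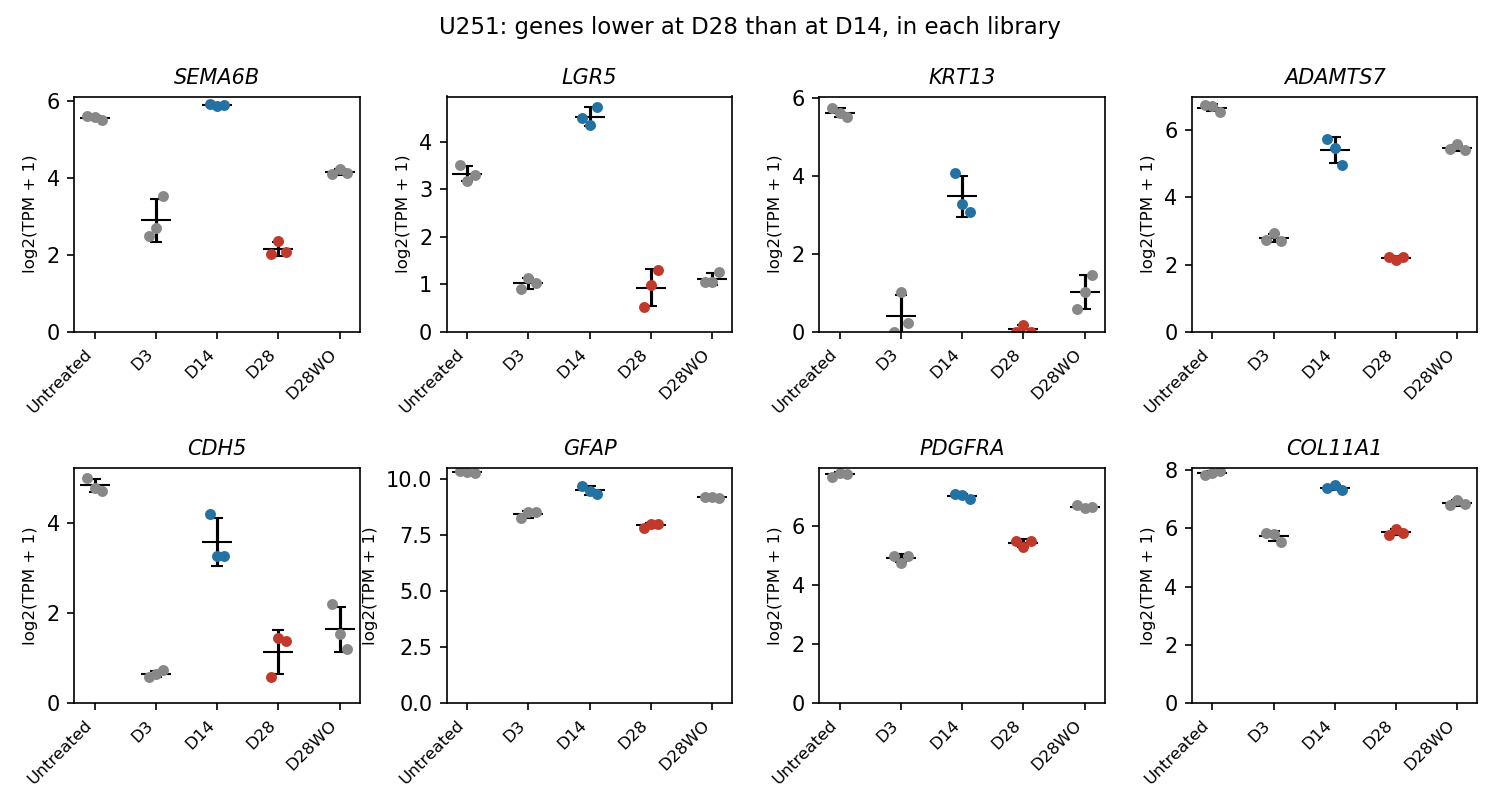
Level of 8 genes as log2(TPM + 1) in each of the 15 U251 libraries, by group (points, D14 blue and D28 red), with the mean and SD of 3 libraries. In every panel the D14 points lie above those of D28, and the D3 mean lies nearer to D28 than to D14.

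Among the genes called lower were 1 glial gene and 2 receptor tyrosine kinases. Of all genes tested, 1.62% were called lower, and 9.32% were lower at the adjusted p alone. GFAP, the intermediate filament of astrocytes, fell from 809.9, 703 and 627 to 222, 253 and 255 TPM (log2 fold change -1.54 ± 0.09, SE; limma adjusted p = 7.7e-08). It was the 1 call among 15 neural stem and glial genes, of which 8 were lower and 0 higher at the adjusted p alone (median -0.35). S100B averaged 121 and 64.1 TPM, NES 119.7 and 89.1, VIM 1060.4 and 764, and CD44 636 and 449, none past the fold limit. Of 16 receptor tyrosine kinases 2 were called lower and 0 higher, and 1 was higher and 7 lower at the adjusted p alone (median -0.30). PDGFRA fell from 132, 132 and 120.2 to 44.3, 37.7 and 43.9 TPM, and FGFR3 from 16.3, 23.4 and 23.2 to 9.06, 6.89 and 8.91 TPM. Of 16 collagen genes 3 were called lower and 0 higher, and 1 was higher and 7 lower at the adjusted p alone (median -0.27). The fibrillar chain COL11A1 fell from 168, 180.3 and 158 to 54.4, 62.6 and 56.2 TPM, and COL12A1 from 142, 157 and 132 to 56.1, 65.3 and 46.6 TPM. COL6A3 averaged 6.99 and 2.94 TPM, and its call was lost without D14 replicate 2 or 3 and without D28 replicate 1 or 3, with log2 fold changes of -0.96, -0.96, -0.86 and -0.97. It was lost too with array weights (-0.99) and with the 2 groups alone in the fit.

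In the list of metalloproteases and inhibitors, which does not hold ADAMTS7, 2 proteases rose and 1 inhibitor fell. TIMP3, which blocks metalloproteases, fell from 69.7, 73.2 and 77.9 to 31.3, 26.1 and 25 TPM (log2 fold change -1.40; limma adjusted p = 1.11e-07). MMP1 rose from 7.77, 6.75 and 10.4 to 18.4, 20.2 and 22.4 TPM (limma adjusted p = 0.00225), a call lost with a pseudocount of 0.1 (limma adjusted p = 0.119). MMP3, stromelysin, rose from 15.1, 16.5 and 22.2 to 34.7, 34.5 and 41.4 TPM. The log2 fold change of MMP3 was 1.01 and fell under the limit without D14 replicate 1 (0.90), D14 replicate 2 (0.96) or D28 replicate 3 (0.93). MMP3 was not called with quantile normalization (0.99), median-ratio size factors (0.98), array weights (0.96) or a pseudocount of 0.1 (limma adjusted p = 0.0515). These were the 3 calls among the 13 genes tested of the list, of which 3 were higher and 2 lower at the adjusted p alone (median -0.10). Of 24 mesenchymal and TGF-β genes the 1 call was CHI3L1, a secreted glycoprotein of the mesenchymal glioma state, at 34.2, 24.2 and 21.8 TPM at D14 and 76.6, 91.4 and 99.5 TPM at D28 (median of the list 0.14), and 8 were higher and 6 lower at the adjusted p alone. Among 16 immediate early genes, 3 transcription factors were called lower and 0 genes higher, and 1 was higher and 9 lower at the adjusted p alone (median -0.42). EGR3 fell from 24.9, 13.6 and 9.82 to 3.51, 3.36 and 2.3 TPM, EGR2 from 48.7, 31.5 and 23.2 to 15, 13 and 13.2 TPM and NR4A1 from 65.3, 44.4 and 25.8 to 14.7, 18.3 and 17 TPM. D14 replicate 1 was the highest library for all 3, and without it the log2 fold changes were -0.93 for EGR2 and -0.99 for NR4A1, both under the limit, while EGR3 kept its call.

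Cell cycle and metabolic genes shifted by small amounts. Of the 54 G2/M genes tested, 33 were lower and 0 higher at the adjusted p alone, and of the 43 S phase genes 20 were lower and 0 higher, with median log2 fold changes of -0.41 and -0.30. None of the 97 passed the fold limit. The proliferation antigen MKI67 averaged 94.2 ± 15.5 TPM at D14 and 54.7 ± 3.86 TPM at D28 (SD, n = 3), a log2 fold change of -0.76 (limma adjusted p = 0.000215). Of 22 replication licensing genes and cyclins 7 were lower and 2 higher at the adjusted p alone (median -0.23), while CCND2, a G1 cyclin, was the 1 call and rose from 0.216, 0.127 and 0.285 to 4.29, 3.78 and 2.45 TPM. Glycolysis and hypoxia genes were lower in 17 and higher in 2 of 27 at the adjusted p alone (median -0.30), with 0 past the fold limit (limma). The kinase PFKFB4 averaged 138 and 80.9 TPM and the enolase ENO1 948 and 567 TPM. Cholesterol and fatty acid synthesis genes were lower in 13 and higher in 0 of 27 (median -0.40), with 0 past the fold limit (limma). Ribosomal protein genes summed to 28333, 27775 and 27916 TPM at D14 and 24509, 24771 and 25154 TPM at D28, without overlap (exact permutation test, 2-sided p = 0.1, the smallest possible with 3 against 3). Of the 77 tested, 32 were lower and 0 higher at the adjusted p alone (median -0.18). The unfolded protein and ATF4 response list held 4 calls among 26, all higher, while 12 were higher and 7 lower at the adjusted p alone (median 0.16). SESN2, an inhibitor of mTORC1, rose from 31.2, 30.5 and 34.2 to 101, 90.3 and 75.2 TPM, and CHAC1, which degrades glutathione, from 58.3, 65.9 and 62.6 to 164, 159.6 and 116 TPM. PSAT1 of serine synthesis and ASNS of asparagine synthesis had log2 fold changes of 1.06 and 1.02, which fell under the limit for PSAT1 without D28 replicate 1 (0.98) and for ASNS without D28 replicate 1 (0.91) or D14 replicate 2 (0.97) and, barely, without D14 replicate 1. ASNS was also under it with median-ratio size factors (0.99) and, barely, with array weights.

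**Figure D4:**
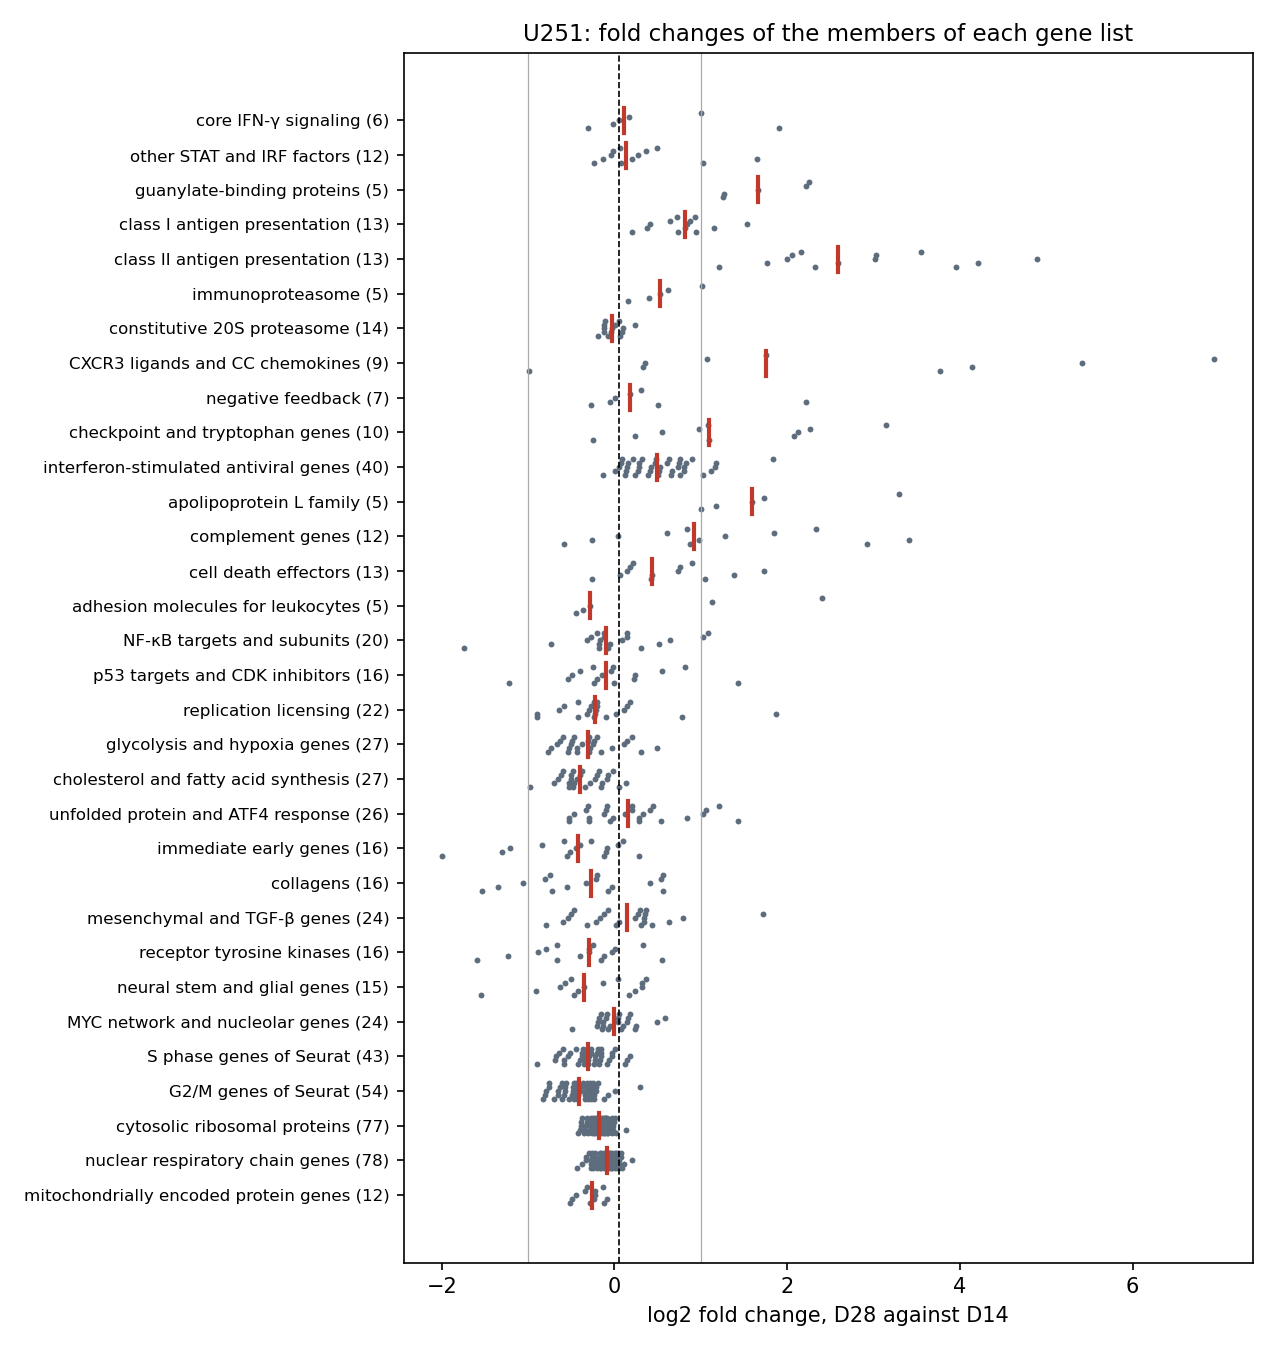
Log2 fold change of D28 against D14 for each tested member of 32 gene lists (grey points, number tested in brackets), with the median of each list in red. The dashed line is the median of all genes, 0.05, and the grey lines mark the fold limit of 1 in each direction.

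Markers of cells other than glioma cells ranged from listed at 0 to clearly present, and bulk values do not show which cells carry them. The 13 macrophage and microglia markers summed to 112, 104 and 119 TPM at D14 and 149, 153 and 188 TPM at D28 (exact permutation test, 2-sided p = 0.1, the smallest possible), most of it the lysosomal protein CD68, with a mean of 102 and 147 TPM. TYROBP was listed at 0 in all 6 libraries. Of the 7 markers tested, 2 were higher and 0 lower at the adjusted p alone. FCER1G, an adaptor of Fc receptors, was the 1 call among 7 tested (0.628, 1.72 and 0.713 to 3.26, 2.68 and 7.38 TPM), and it was lost without D14 replicate 1 or 3 and without D28 replicate 1 or 3, with log2 fold changes of 1.24, 1.27, 1.5 and 1.01. It was lost as well with no filter, quantile normalization, median-ratio size factors or array weights. The 10 T and natural killer cell markers summed to 4.73, 6.12 and 3.05 TPM at D14 and 3.36, 5 and 6.08 TPM at D28, the most abundant being KLRD1 and with CD2 and IFNG listed at 0 in all 6 libraries, with 0 calls among 3 tested (limma, 0 also at the adjusted p alone). The 7 endothelial markers summed to 22.8, 10.8 and 12.5 and 5.94, 7.26 and 7.56 TPM. The most abundant of them, the junction protein CDH5, fell from 17.3, 8.66 and 8.65 to 0.488, 1.71 and 1.6 TPM (log2 fold change -2.45; limma adjusted p = 9e-05), averaged 27.6 TPM in Untreated, and was the 1 call among 4 tested. The 7 fibroblast and pericyte markers summed to 91.9, 89.7 and 90.8 and 117, 111 and 111 TPM, without overlap, mostly ACTA2, with LUM listed at 0. Of 4 tested, 0 were called, while 2 were higher and 1 lower at the adjusted p alone (limma). The 8 neuronal markers summed to 152, 128 and 143 and 184, 162 and 145 TPM, mostly MAP2. Among 6 tested there were 0 calls (limma, 0 also at the adjusted p alone). The part of other cells in the results was not tested beyond these levels.

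A comparison that shares no library with the main one, D3 against Untreated, was added after the data were seen. Both comparisons come from 1 fit, so their calls share 1 estimate of the spread of each gene and are not independent. The genes were also filtered on their D14 and D28 levels. D3 against Untreated called 2262 genes higher (9.25%) and 1040 lower (4.25%). Of the 1043 genes higher at D28 than at D14, 609 were also called higher at D3 than in Untreated, which is 58.4% of the first list and 26.9% of the second. Of the 396 lower genes, 223 were also called lower at D3, which is 56.3% and 21.4% of the lists. In the opposite direction were 6 genes that were higher at D28 than at D14 and lower at D3 than in Untreated, and 0 of the reverse kind. The median log2 fold change at D3 against Untreated was 1.25 for the higher genes, -1.21 for the lower genes and 0.13 for all genes tested. The higher genes had a median level of 2.4 TPM at D14 and 9.87 TPM at D28, beside 1.24 TPM in Untreated, 6.05 TPM in D3 and 3.21 TPM in D28WO. The D14 and D28 levels chose these genes, so only the levels of the other 3 groups do not follow from the choice. The 2 time points on either side of D14 were compared directly as well, with 698 genes higher and 86 lower at D28 than at D3. CXCL9, CXCL10 and CCL8 were among the genes still higher at D28 than at D3 (log2 fold change 1.03, 1.10 and 2.66; limma adjusted p = 0.00794, 0.00184 and 0.000639).

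**Figure D5:**
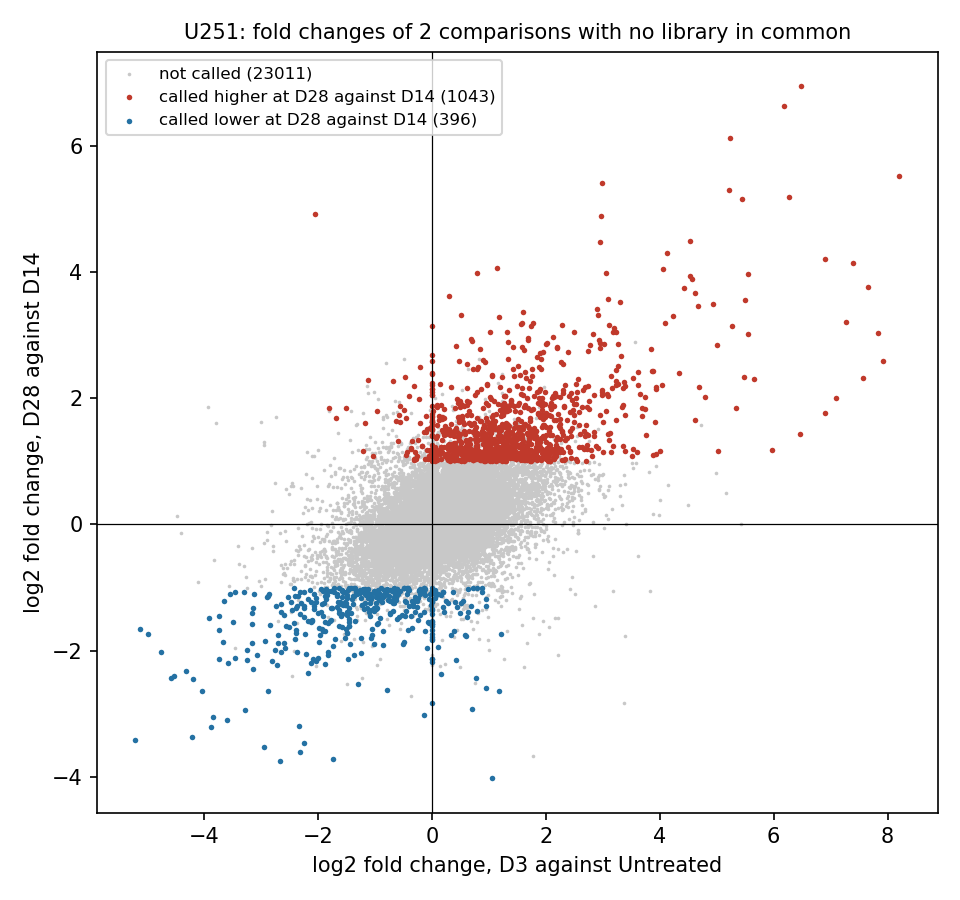
Log2 fold change of each of the 24450 genes tested in D3 against Untreated (horizontal) and in D28 against D14 (vertical), 2 comparisons with no library in common. Genes called higher (1043, red) and lower (396, blue) at D28 against D14 have medians of 1.25 and -1.21 on the horizontal axis.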

How the data were processed

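RNA of U251 cells was measured by bulk RNA-seq. For the authors' own processing, the deposited notes name FastQC, Trim Galore, STAR, featureCounts, edgeR and GRCh38. The TPM values, 1 table per line, were deposited by the authors, and how TPM was computed is not given in the sources used here. TPM keeps no sequencing depth, so no floor is given for a gene listed at 0. Of the U87 table, 2 columns were not used because both carry the same name, which leaves U87 2 libraries at D14. Samples were grouped by their labels.

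The test covered 24450 of 61471 genes, those whose TPM averaged 0.5 or more in the 6 D14 and D28 libraries, as log2(TPM + 1), with a pseudocount of 1, in limma 3.58.1 and R 4.3.3 (lmFit, eBayes with a trend), with all 15 U251 libraries in 5 groups in 1 fit. Calls needed both an adjusted p (Benjamini-Hochberg) below 0.05 and a log2 change larger than 1 in size. Single values of a library were compared with exact permutation tests. Named genes were the 12 largest rises and the 12 largest falls among called genes with a symbol, 5 TPM or more on average in the higher group, and no overlap between the groups, up to 4 members of a list with the largest change and members needed to tell roles apart, and the core signaling genes with CIITA, B2M, CXCL9, CXCL10, CXCL11, CD274 and IDO1 in every case. The 43 lists were written by hand, taken from Seurat 5.3.0 (S and G2/M genes) or made by rules on symbols. Some genes that the rule names are not reported here, though list counts include them. Members and lists were chosen with earlier results of these data known. Coordinates come from GENCODE release 44 and promoter windows from RefSeq. The procedure was tested on simulated data. Plots were drawn with Python 3.11.15 and matplotlib 3.10.9.

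Alternatives were another pseudocount, 3 other filters, quantile normalization, median-ratio size factors, the 2 groups alone, array weights, a block for replicate number, the adjusted p alone, and leaving out each library.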

Additional observations from a re-analysis of the deposited data

Results flagged for a closer look

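The same contrast in U87, with 2 D14 and 3 D28 libraries, was set beside that of U251 for 102 genes of the lists or among the named genes that were called in U251. In 75 of them all D28 libraries lay beyond all D14 libraries in the same direction in both lines, in 23 the U87 groups overlapped, and in 4 every D28 library of U87 was above every D14 library while every D28 library of U251 was below. Over all 24450 genes tested, 10.1% were apart in the same direction in both lines and 3.96% in opposite directions, and over all 1439 called genes 33.5% and 7.3%. The 4 genes were EGR2, with a mean of 43.1 TPM at D14 and 75.9 at D28 in U87 (log2 difference 0.788), LIF, with 51.1 and 73.9 TPM (0.506), BTG2, an antiproliferative p53 target, with 12.2 and 16.6 TPM (0.411), and PI15, listed at 0 at D14 and at 0.214 TPM at D28 (0.272). The difference between the lines was not tested.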

How the results depend on the processing

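Under the alternatives the number of genes higher at D28 ran from 767 to 1100 and that of lower genes from 335 to 587, apart from the adjusted p as the only criterion, which gave 2799 and 2279. No gene called in one direction was called in the other under any alternative. The median log2 fold change of all genes was -0.020 with quantile normalization, and the cause was not tested. Leaving out each library in turn gave 865 to 1100 higher genes, 335 to 393 lower genes and medians of 0.033 to 0.073. Of the 1043 and 396 genes, the alternatives other than the adjusted p alone kept 756 to 1007 and 284 to 390. Of 1872 values of 117 single genes, 1785 kept direction and side of the threshold, 63 lost the call, 21 gained it and 3 changed sign or became 0. Those counts cover the genes named in the text and a few not reported here, which were chosen with their values known, and the set was narrowed to them after a wider one had been run. Over all 209 genes of the naming rule and the text, 3167 of 3336 values were unchanged, 63 lost the call, 94 gained it and 12 changed sign. For the lists, 1848 of 2021 values of counts and 578 of 645 values of medians were classed as unchanged. So were 1167 of 1290 values of list counts at the adjusted p alone, and the remaining list values moved. That class allows some shift, since the 767 higher genes with quantile normalization also fell in it. JAK1 went from -0.01 to 0.013 with quantile normalization and ran from -0.071 to 0.046 when each library was left out, and B2M to 0 with quantile normalization, by its equal rank in every library.

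With the replicate number as a block the counts were 1040 higher and 398 lower, with a median of 0.05. Same-numbered D14 and D28 libraries did not deviate together (correlations of -0.04, -0.02 and -0.01 across genes, each below the highest with another number), so the numbers were not taken as pairs. TPM keeps no depth, so what it limits is unknown. The D14 levels rest on labels that were not tested.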

Other observations

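Several lists held 0 calls between D14 and D28. Over all genes tested, 4.27% were called higher and 1.62% lower, and at the adjusted p alone 11.4% were higher and 9.32% lower. At the adjusted p alone, MYC network and nucleolar genes had 2 higher and 1 lower of 24 (median log2 fold change 0.00), PI3K-AKT pathway genes 2 higher and 6 lower of 23 (-0.07), nuclear respiratory chain genes 0 higher and 13 lower of 78 (-0.09), metallothioneins 0 higher and 0 lower of 5 (0.14) and mitochondrially encoded protein genes 0 higher and 0 lower of 12 (-0.26). Of these, 0 were called (limma). The lowest log2 fold change of a metallothionein was -1.02, beyond the fold limit, but it did not pass the adjusted p.

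Among 16 p53 targets and CDK inhibitors, SESN2 was called higher and BTG2 lower, at 28.3, 23.6 and 17.4 TPM at D14 and 8.43, 10.2 and 8.74 TPM at D28 (median of the list -0.09). Replication-dependent histone genes, many of which are near-identical, gave 1 call in each direction among 57, H2AC18 higher and H2BC9 lower (median -0.25). H2BC9, chosen after its values were seen, stood at 36.9, 30.6 and 35.3 TPM at D14 and 14.1, 13.5 and 19.1 TPM at D28, without overlap (log2 fold change -1.10; limma adjusted p = 0.0253). Its call was lost without D14 replicate 1 or 3 and without D28 replicate 1 or 2, with log2 fold changes of -1.05, -1.08, -1.04 and -1.01 (limma adjusted p = 0.0708, 0.0681, 0.0754 and 0.0865). Olfactory receptor genes, taken as silent genes, summed to 51.0, 51.0 and 45.4 TPM at D14 and 70.5, 69.4 and 49.5 TPM at D28 (exact permutation test, 2-sided p = 0.3, n = 3 each), and 0 of 16 passed (limma).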
